A study of Mus musculus with 9 samples.

Results

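The 40 genes described here encode proteins that build ribosomes in the nucleolus, subunits of RNA polymerase I, and enzymes of nucleotide and polyamine synthesis that are classical targets of the transcription factor Myc. They were taken from a list of symbols with no expression cut-off, and where a gene had several probe sets, the brightest over the 9 arrays stood for it. All 40 of the 40 listed genes were measured, among 18193 genes on the array. They were sorted by known role into box C/D small nucleolar ribonucleoprotein (snoRNP) proteins (4 genes), box H/ACA snoRNP proteins with their chaperone (4), abundant and regulatory nucleolar proteins (5), RNA polymerase I subunits (4), small subunit assembly factors (7), large subunit assembly factors (12) and metabolic Myc targets (4).

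Expression was measured on 9 oligonucleotide arrays, 3 in each of 3 groups of LSK cell cultures. LSK cells are the Lineage-, Sca-1+, c-Kit+ fraction of bone marrow, which is rich in blood stem and progenitor cells, and here they came from wild-type C57/Bl6 mice. All cultures ran for 3 days on OP9 cells, a bone marrow stromal line used as a feeder, and only cells that did not adhere were harvested. The groups were OP9-GFP (the control feeder), OP9-DL1, a feeder that carries the Notch ligand Delta-like 1, and OP9-DL1 with Compound E at 1 µM, a γ-secretase inhibitor that blocks the cleavage by which Notch receptors signal. There was no group with Compound E on the control feeder, and the labels name no vehicle for the other cultures. The labels do not say whether separate animals or cultures stand behind the replicates, so every p-value rests on the spread between these 9 samples alone, and part of that spread may be technical.

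Ribosomes are assembled in the nucleolus, where RNA polymerase I transcribes the ribosomal RNA precursor, snoRNPs guide its chemical modification and cleavage, and many transient assembly factors fold and trim the subunits before export. Myc, in a dimer with Max, binds the E-box CACGTG in many promoters and is known to raise the expression of genes for each of these steps and for the polyamine and nucleotide synthesis that growing cells need. Myc is also a known direct target of Notch in developing T cells.

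As a check of the groups, Hes1, a classical Notch target, had a log2 mean of 3.94 ± 0.21 (SD, n = 3) on OP9-GFP, 6.06 ± 0.28 on OP9-DL1 and, under the inhibitor, 3.97 ± 0.22. No member was at background in any group, where background is the highest value of the bacterial control probe sets, 3.64. The median deviation of all 18193 genes from the OP9-GFP mean lay from -0.03 to 0.05 on single arrays (log2). Median values over all probe sets differed a little by group: 4.88 to 4.90 on OP9-GFP, 4.92 to 4.94 on OP9-DL1 and 4.78 to 4.82 with Compound E. Over genes they were 6.36 to 6.41, 6.41 to 6.46 and 6.35 to 6.42. The probe set medians had the order of groups of most members, and counts with arrays centred are given below. Exactly equal values stood on 2 or more arrays of a group for 6 members, against 21.9% of all genes, and Nop58 read the same on all 3 OP9-GFP arrays. Such values lower the spread behind a p-value.

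The E-box stood in the promoters of some members. RefSeq promoter windows (GRCm38.p6), which run from 250 bases before to 50 bases after each annotated start, were found for 34 of the 40 genes. CACGTG, which reads the same on both strands, was in the window of 7 of these 34 (20.6%): Mybbp1a, Utp20, Wdr43, Tsr1, Pes1, Nop2 and Nme1. Among the 14433 tested genes with a window the share was 10.2%, and by window it was 21.1% of the members' 38 windows against 8.72% of 18088. The 4 sequences below are those of members that hold the motif and had the smallest p in the comparison of Compound E with OP9-DL1. They are printed on the plus strand, which is the strand of all 4 genes, 5′ to 3′, with the motif in capitals. The first 3 run from 150 bases before to 30 bases after the start, and the Mybbp1a stretch covers only the surroundings of its motif. Wdr43 (chr17:71616065-71616244) has the motif 17 bases after the start, Nop2 (chr6:125131733-125131912) 60 bases before it, Tsr1 (chr11:74897930-74898109) 24 bases after it and Mybbp1a (chr11:72441347-72441376) 40 bases after it.
Wdr43: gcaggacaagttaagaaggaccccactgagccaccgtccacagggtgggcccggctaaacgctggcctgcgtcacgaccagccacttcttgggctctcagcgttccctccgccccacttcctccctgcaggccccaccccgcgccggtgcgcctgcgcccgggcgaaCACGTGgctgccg
Nop2: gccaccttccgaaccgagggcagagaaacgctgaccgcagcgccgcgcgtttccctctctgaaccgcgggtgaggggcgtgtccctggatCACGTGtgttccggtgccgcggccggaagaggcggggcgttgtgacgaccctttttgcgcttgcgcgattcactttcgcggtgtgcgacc
Tsr1: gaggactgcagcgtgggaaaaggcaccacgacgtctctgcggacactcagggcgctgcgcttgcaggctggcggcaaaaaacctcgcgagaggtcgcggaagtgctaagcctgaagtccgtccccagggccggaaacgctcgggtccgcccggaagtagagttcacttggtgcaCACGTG
Mybbp1a: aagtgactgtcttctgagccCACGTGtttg
A match describes these letters only and does not show that a factor binds there.

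The effect of the ligand-bearing feeder was read from OP9-DL1 against OP9-GFP. More members rose than fell, and by small amounts. In limma's test, with p-values adjusted over all 18193 genes and a threshold of 0.05, 14 of 40 were higher on OP9-DL1 (35%), against 15.9% of all genes, and 1 was lower (2.5%), against 16.7%. The members that rose were Nop56, Nop58, Dkc1, Gnl3, Ddx21, Mybbp1a, Polr1c, Polr1e, Wdr43, Tsr1, Noc3l, Rrs1, Odc1 and Nme1, and the member that fell was Pes1. The median difference over the 40 was 0.11 (log2), with a range of -0.31 to 0.38, against a median of -0.02 over all genes. All 3 OP9-DL1 arrays lay above all 3 OP9-GFP arrays for 19 members, while 20.8% of all genes separated in that direction. They lay below for 4 members, and for 4193 of the 18193 genes. The count of rises was not firm: it was 9 without OP9-GFP replicate 1, 8 without OP9-GFP replicate 2, 9 without OP9-DL1 replicate 1, 8 with arrays centred on their medians and 7 with no intensity trend in the variance.

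The effect of the inhibitor on the same feeder was read from the Compound E arrays against the OP9-DL1 arrays. Most members fell and none rose: 30 of 40 were lower (75%), against 21.6% of all genes, and 0 were higher, against 25.1%. The median difference was -0.37 (log2), and the range ran from -0.84 to 0.15, while the median of all genes was 0.08. Of the 40, 37 had a negative difference, 6 were lower by more than 1.5-fold and none by 2-fold. All 3 Compound E arrays lay below all 3 OP9-DL1 arrays for 29 members, against 23.2% of all genes, and above them for none, against 29.3%. The genes beyond 1.5-fold were Dkc1, Nolc1, Nop58, Odc1, Rrs1 and Gar1. Under all alternatives run, single arrays left out included, between 28 and 32 members were lower, of the 34 to 40 members tested.

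The members were brighter than many genes on the array, so the same counts were taken over bright genes alone. Among the 9647 genes at least as bright as the dimmest member, 31.9% were lower with Compound E than on OP9-DL1 and 34.7% were higher, with a median of 0.02. In that same bright set 22.2% were higher and 27.6% lower on OP9-DL1 than on OP9-GFP. Between Compound E and OP9-GFP 17.3% of it were lower and 17.7% higher.

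The third comparison set Compound E against the control feeder. Here 19 of 40 members were lower (47.5%), against 10.6% of all genes, and 0 were higher, against 12.1%. Their median was -0.23 (log2), with a range of -0.71 to 0.07, and the median of all genes was 0.05. Of the 40, 38 had a negative difference, and 1, Nolc1, was lower by more than 1.5-fold. All 3 Compound E arrays were below all 3 OP9-GFP arrays for 23 members, against 15% of all genes. Most members thus read lower with the inhibitor than on the control feeder. The 3 comparisons share arrays in pairs, so they are not independent of each other.

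**Figure D1:**
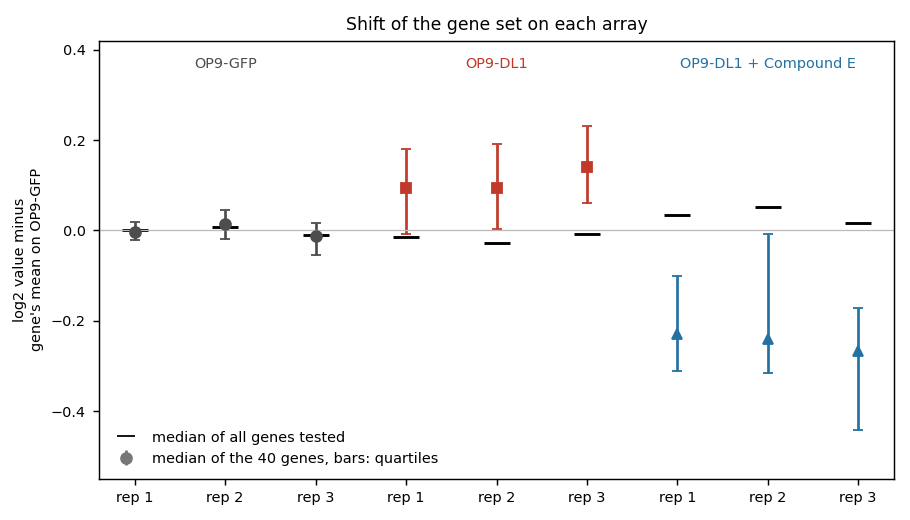
Median of the 40 genes on each of the 9 arrays, as log2 value minus the gene's mean on OP9-GFP, with bars for the quartiles over the 40 genes and black dashes for the median of all 18193 genes. The OP9-DL1 medians were 0.09, 0.09 and 0.14 and the Compound E medians -0.23, -0.24 and -0.27, while the median of all genes stayed between -0.03 and 0.05.

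Each array showed the same order of groups. The member median, as a deviation from the OP9-GFP mean, lay between -0.01 and 0.01 on the OP9-GFP arrays, between 0.09 and 0.14 on OP9-DL1 and between -0.27 and -0.23 with Compound E. By group means, 30 of the 40 genes were highest on OP9-DL1 and lowest with Compound E. A further 6 had the order OP9-GFP, OP9-DL1, Compound E from high to low, 2 were lowest on OP9-DL1 with OP9-GFP highest, and 1 each followed the remaining orders. By calls, 9 genes rose on OP9-DL1 and were lower with Compound E than in both other groups: Nop56, Nop58, Dkc1, Gnl3, Ddx21, Mybbp1a, Wdr43, Tsr1 and Odc1. Another 10 did not pass in the comparison of feeders but were lower with Compound E than in both other groups: Fbl, Gar1, Nhp2, Nolc1, Ncl, Utp20, Noc4l, Wdr12, Nop2 and Srm. Polr1c, Polr1e, Noc3l, Rrs1 and Nme1 (5 genes) rose on OP9-DL1 and were lower with Compound E than on OP9-DL1 only. A set of 6 (Npm1, Polr1b, Rrp12, Ppan, Ebna1bp2 and Cad) passed only in the comparison of Compound E with OP9-DL1. Pes1 passed only in the comparison of feeders, and 9 genes passed in none: Rrp9, Polr1a, Heatr1, Nop14, Bop1, Nop16, Nip7, Noc2l and Wdr74.

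**Figure D2:**
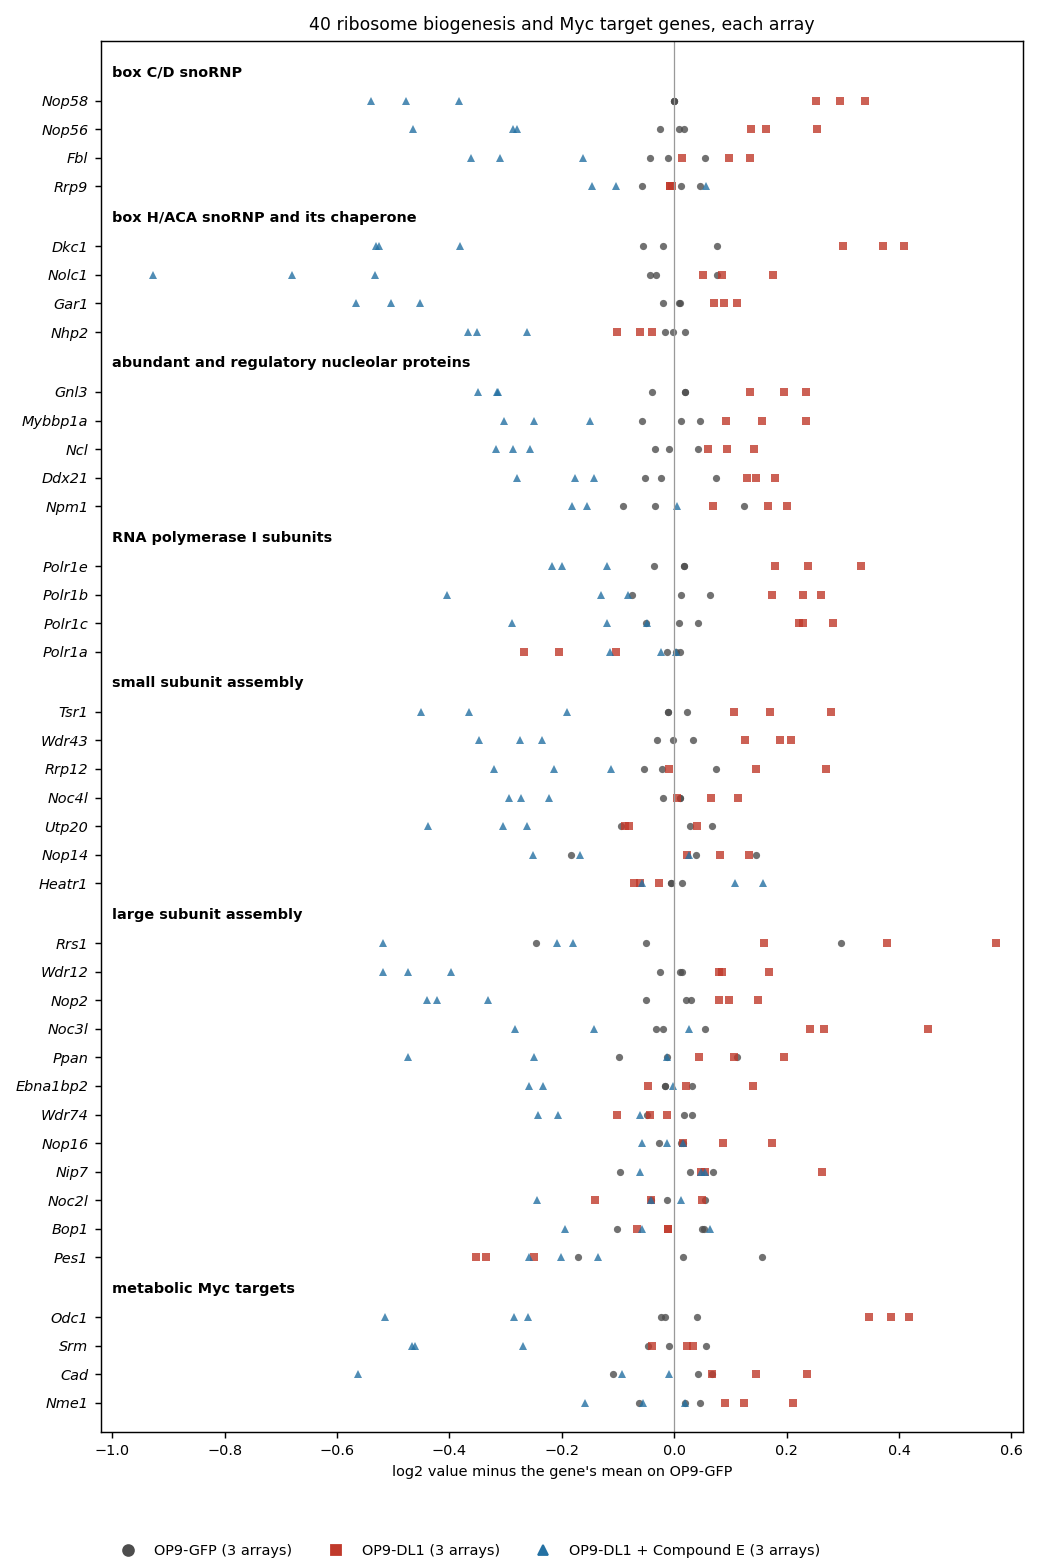
Log2 value of each of the 40 genes on each array minus the gene's mean on OP9-GFP (x axis), in rows sorted by role, with circles for OP9-GFP, squares for OP9-DL1 and triangles for OP9-DL1 with Compound E. For 29 genes every triangle lies left of every square, and for 23 every triangle lies left of every circle.

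The counts of each role group below stand beside these shares of all genes. On OP9-DL1 15.9% were higher and 16.7% lower than on OP9-GFP. With Compound E 21.6% were lower and 25.1% higher than on OP9-DL1, and 10.6% were lower and 12.1% higher than on OP9-GFP. The bright set above had larger shares in each comparison. Box C/D snoRNPs place methyl groups on ribosomal RNA and, in special cases, guide its cleavage. In this group 2 of 4 genes rose on OP9-DL1 (median 0.13, log2) and 3 of 4 were lower with Compound E than on OP9-DL1 (median -0.44) and than on OP9-GFP (median -0.31). Nop58, a scaffold protein of the particle, read 9.89, 9.89 and 9.89 on OP9-GFP, 10.14, 10.23 and 10.18 on OP9-DL1, and 9.41, 9.50 and 9.35 with Compound E (log2). No group overlapped another. Its difference was 0.30 between the feeders (limma adjusted p = 0.000468), -0.76 between Compound E and OP9-DL1 (adjusted p = 7.95e-09, 1.70-fold lower) and -0.47 between Compound E and OP9-GFP (adjusted p = 1.68e-05), each with an SE of 0.06. Nop56, the partner scaffold, read 11.25, 11.24 and 11.21 on OP9-GFP, 11.40, 11.37 and 11.49 on OP9-DL1, and 10.95, 10.95 and 10.77 with Compound E, again without overlap. Its differences in the same order were 0.18, -0.53 and -0.34, with limma adjusted p-values of 0.0133, 4.41e-07 and 0.000215. Fbl, the methyltransferase fibrillarin, differed by -0.36 between Compound E and OP9-DL1 (adjusted p = 2.6e-05), and its 0.08 between the feeders did not pass. Rrp9, the protein particular to the particle that guides cleavage, stood apart from the other three: it read 6.50, 6.53 and 6.43, then 6.48, 6.48 and 6.48, then 6.38, 6.54 and 6.34 in the same order of groups. Those groups overlapped, and the difference between Compound E and OP9-DL1 was -0.06 (adjusted p = 0.675).

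Box H/ACA snoRNPs convert chosen uridines of ribosomal RNA to pseudouridine. All 4 genes of this group were lower with Compound E than in either other group, with medians of -0.71 against OP9-DL1 and -0.49 against OP9-GFP (log2), and 1 rose on OP9-DL1. Dkc1, the pseudouridine synthase dyskerin, read 10.57, 10.53 and 10.66 on OP9-GFP, 10.96, 10.89 and 11.00 on OP9-DL1, and 10.20, 10.05 and 10.06 with Compound E. The 3 groups were fully separate. Its difference was 0.36 between the feeders (SE 0.06, limma adjusted p = 8.03e-05) and -0.84 between Compound E and OP9-DL1 (adjusted p = 2.88e-09, 1.79-fold lower). Its other 2 probe sets gave -0.82 and -0.99. Gar1, a core protein of the same particle, read 11.44, 11.47 and 11.47, then 11.55, 11.57 and 11.53, then 10.89, 10.96 and 11.01. The feeders differed by 0.09 without passing (adjusted p = 0.132), while Gar1 fell with Compound E, with differences of -0.60 from OP9-DL1 (adjusted p = 6.4e-09) and -0.51 from OP9-GFP (adjusted p = 4.96e-07). Nhp2, another core protein, read 10.43, 10.39 and 10.41, then 10.31, 10.35 and 10.37, then 10.06, 10.15 and 10.04. For Nhp2 the OP9-DL1 arrays lay below the OP9-GFP arrays, with a difference of -0.07 that did not pass (adjusted p = 0.363), and Compound E differed from OP9-DL1 by -0.26 (adjusted p = 0.000379). Nolc1, a chaperone that binds these particles in the nucleolus, read 11.42, 11.41 and 11.53, then 11.54, 11.51 and 11.63, then 10.78, 10.53 and 10.92, the Compound E arrays being well apart from both feeders. It differed by 0.10 between the feeders (adjusted p = 0.353), by -0.82 between Compound E and OP9-DL1 (adjusted p = 1.45e-07) and by -0.71 between Compound E and OP9-GFP (adjusted p = 5.57e-06). Its other 2 probe sets gave -0.29 and -0.28 against OP9-DL1, and both passed.

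The abundant and regulatory nucleolar proteins behaved alike in the second comparison: 5 of 5 were lower with Compound E than on OP9-DL1 (median -0.39), 4 were lower than on OP9-GFP (median -0.23) and 3 rose on OP9-DL1 (median 0.15, all log2). Gnl3, or nucleostemin, a GTP-binding protein of stem and cycling cells, read 11.56, 11.56 and 11.50 on OP9-GFP, 11.67, 11.74 and 11.77 on OP9-DL1, and 11.19, 11.22 and 11.23 with Compound E. No groups overlapped, and the differences were 0.19 (limma adjusted p = 0.00202), -0.51 (adjusted p = 3.34e-08) and -0.33 (adjusted p = 3.82e-05). Ncl, or nucleolin, an RNA-binding protein of the growing ribosomal RNA, read 11.77, 11.71 and 11.69, then 11.78, 11.82 and 11.86, then 11.41, 11.44 and 11.47. The feeders differed by 0.10 (adjusted p = 0.0838), and Compound E differed from OP9-DL1 by -0.39 (adjusted p = 8.31e-07). The 4 other Ncl probe sets, all dimmer, gave 0.11, 0.21, 0.32 and 0.61 between the feeders and -0.39, -0.60, -0.82 and -1.03 between Compound E and OP9-DL1, so the size for Ncl depends on the probe set. Ddx21, an RNA helicase, read 11.88, 11.85 and 11.97, then 12.08, 12.04 and 12.03, then 11.76, 11.62 and 11.72, and passed in all comparisons, with 0.15, -0.35 and -0.20. The rise of Ddx21 on OP9-DL1 was lost under 6 of 19 alternatives. Its call between Compound E and OP9-GFP was lost with no intensity trend (limma adjusted p = 0.059). Its other probe set gave 0.02, -0.10 and -0.08 and passed in none. Npm1, or nucleophosmin, a histone and ribosome chaperone, had overlapping groups apart from Compound E against OP9-DL1: it read 12.92, 12.86 and 13.07, then 13.12, 13.15 and 13.02, then 12.79, 12.77 and 12.95. Only the difference between Compound E and OP9-DL1, -0.26, passed (adjusted p = 0.00159). Mybbp1a, a nucleolar co-regulator of transcription, differed by 0.16, -0.40 and -0.23 and passed in all comparisons. Its rise on OP9-DL1 was lost under 7 of 19 alternatives. The other Mybbp1a probe set gave 0.08, -0.24 and -0.16, of which only the second passed (limma adjusted p = 0.0319).

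Among the RNA polymerase I subunits 2 of 4 rose on OP9-DL1 (median 0.23, log2), 3 were lower with Compound E than on OP9-DL1 (median -0.41), and none passed between Compound E and OP9-GFP (median -0.17). Polr1e, a subunit that helps the enzyme to start and to elongate, read 8.80, 8.85 and 8.85 on OP9-GFP, 9.01, 9.07 and 9.16 on OP9-DL1, and 8.71, 8.61 and 8.63 with Compound E. The differences were 0.25 (limma adjusted p = 0.00666), -0.43 (adjusted p = 4.15e-05) and -0.18 (adjusted p = 0.0607). Polr1c, shared with RNA polymerase III, read 10.02, 9.96 and 10.06, then 10.30, 10.24 and 10.24, then 9.96, 9.73 and 9.89, so the OP9-GFP and Compound E arrays met at 9.96. Its differences were 0.24, -0.40 and -0.15, the last not passing (adjusted p = 0.0894), and its other probe set gave 0.11 and -0.13 in the first 2 comparisons and passed in neither. Polr1b, the second largest subunit, fell by 0.43 in the second comparison (adjusted p = 0.00876). Polr1a, the largest and catalytic subunit, had a probe set that went the other way without passing: it read 7.92, 7.90 and 7.92, then 7.71, 7.65 and 7.81, then 7.92, 7.89 and 7.80. All OP9-DL1 arrays were below all OP9-GFP arrays, with a difference of -0.19 (adjusted p = 0.0789), and Compound E stood 0.15 above OP9-DL1 (adjusted p = 0.143). With arrays centred on their medians both of those differences passed. The direction depends on the probe set: the next brightest probe sets of Polr1a gave -0.14 and -0.16 between Compound E and OP9-DL1, not passing, and the first of them was lower with Compound E than on OP9-GFP (-0.31, adjusted p = 0.0375).

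Of the 7 small subunit assembly factors, 2 rose on OP9-DL1 (median 0.08, log2), 5 were lower with Compound E than on OP9-DL1 (median -0.33) and 4 than on OP9-GFP (median -0.26). Wdr43, a protein of the early complex that gathers on the ribosomal RNA precursor, read 11.40, 11.47 and 11.43 on OP9-GFP, 11.64, 11.62 and 11.56 on OP9-DL1, and 11.20, 11.09 and 11.16 with Compound E. The groups were separate, and the differences were 0.17 (limma adjusted p = 0.0056), -0.46 (adjusted p = 2.53e-07) and -0.29 (adjusted p = 0.000218). Tsr1, which acts on late small subunits in the cytoplasm, read 9.88, 9.91 and 9.88, then 10.06, 9.99 and 10.17, then 9.70, 9.52 and 9.44. Its rise of 0.19 was at the edge of the threshold (adjusted p = 0.0474), and its fall of -0.52 was not (adjusted p = 7.85e-06). Wdr43 and Tsr1 both hold the E-box shown above. Utp20, Noc4l and Rrp12 were also lower with Compound E than on OP9-DL1, with differences of -0.29, -0.33 and -0.35, and the call on Rrp12 was lost without OP9-DL1 replicate 3 (adjusted p = 0.0515). For Noc4l a second probe set gave -0.34, while the other 2 gave 0.03 and 0.01. Heatr1, a large scaffold of the early complex, had its highest mean with Compound E: it read 9.87, 9.87 and 9.89, then 9.85, 9.81 and 9.82, then 9.99, 10.04 and 9.82. Its 0.12 between Compound E and OP9-DL1 did not pass (adjusted p = 0.103), although it did with arrays centred, with probe sets averaged or without Compound E replicate 3, and 1 of its 2 other probe sets rose by 0.29 (adjusted p = 0.0363). Nop14, at -0.21, missed the threshold narrowly (adjusted p = 0.0508) and was called lower under 9 of 19 alternatives.

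Large subunit assembly, the largest role group, held the most members that did not pass. By share it stood apart from the other role groups only in the second comparison. Of its 12 genes, 2 rose and 1 fell on OP9-DL1 (median 0.10, log2). The share that rose was 16.7%, near the 15.9% of all genes and below the 22.2% of the bright set above. With Compound E 6 were lower than on OP9-DL1 (50%, against 21.6% of all genes and 31.9% of the bright set, median -0.16). Against OP9-GFP 2 were lower (16.7%, against 10.6% of all genes and near the 17.3% of the bright set, median -0.17). Wdr12 read 10.22, 10.18 and 10.22 on OP9-GFP, 10.38, 10.29 and 10.29 on OP9-DL1, and 9.73, 9.69 and 9.81 with Compound E, with no overlap. It fell by 0.57 with Compound E against OP9-DL1 (limma adjusted p = 1.28e-07), and its 0.11 between the feeders did not pass (adjusted p = 0.13). Wdr12 forms a stable complex with Pes1 and Bop1 that is needed to process the large subunit RNA, and these partners gave other values. Pes1 read 9.82, 9.96 and 9.63, then 9.47, 9.55 and 9.45, then 9.60, 9.67 and 9.54, so its OP9-DL1 arrays were the lowest and Compound E lay between, overlapping both. It fell by 0.31 on OP9-DL1 (adjusted p = 0.00328) and differed by 0.11 between Compound E and OP9-DL1 (adjusted p = 0.223). The fall of Pes1 was lost when its probe sets were averaged, as its second, dim probe set gave 0.09. Bop1 read 8.56, 8.56 and 8.41, then 8.50, 8.44 and 8.50, then 8.45, 8.57 and 8.31, overlapping throughout, with -0.03 in the second comparison (adjusted p = 0.752).

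Nop2, an RNA methyltransferase of the large subunit that holds the E-box shown above, read 9.44, 9.45 and 9.37, then 9.51, 9.50 and 9.57, then 8.98, 9.09 and 8.99. With Compound E it fell by 0.51 against OP9-DL1 (limma adjusted p = 2.08e-06) and fell by 0.40 against OP9-GFP (adjusted p = 0.000131). Noc3l, a factor of nuclear large subunit particles, read 7.58, 7.59 and 7.66, then 7.85, 8.06 and 7.88, then 7.33, 7.64 and 7.47, with 0.32 on OP9-DL1 (adjusted p = 0.0165) and -0.45 in the second comparison (adjusted p = 0.00097). Its other probe set gave -0.20 and 0.12 and passed in neither, so the 2 probe sets of Noc3l disagree in sign. Rrs1, which brings in the small ribosomal RNA of the large subunit, read 10.91, 10.71 and 11.25, then 11.33, 11.53 and 11.12, then 10.75, 10.44 and 10.78, a wide spread within each group in which only Compound E and OP9-DL1 did not overlap. It fell by 0.67 in the second comparison (adjusted p = 0.000242). Its rise of 0.37 on OP9-DL1 (limma adjusted p = 0.028) was lost under 7 of 19 alternatives. The other Rrs1 probe set gave 0.11 there and did not pass (limma adjusted p = 0.369). Ppan and Ebna1bp2 were also lower there, with differences of -0.36 and -0.20, and the call on Ebna1bp2 was lost with arrays centred, with no intensity trend, and without OP9-DL1 replicate 3 or Compound E replicate 1 or 3. Nop16, Nip7, Noc2l and Wdr74 gave -0.11, -0.11, -0.05 and -0.12 and did not pass, yet the second probe sets of Nop16, Nip7 and Noc2l gave -0.41, -0.24 and -0.44 and were called lower.

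All 4 metabolic Myc targets were lower with Compound E than on OP9-DL1 (median -0.39, log2), 2 were lower than on OP9-GFP (median -0.29) and 2 rose on OP9-DL1 (median 0.15). Odc1, ornithine decarboxylase, which makes the first polyamine, read 10.10, 10.09 and 10.15 on OP9-GFP, 10.50, 10.46 and 10.53 on OP9-DL1, and 9.85, 9.83 and 9.60 with Compound E. The groups were separate, with differences of 0.38 (SE 0.06, limma adjusted p = 0.000151), -0.74 (adjusted p = 6.87e-08, 1.67-fold lower) and -0.35 (adjusted p = 0.000791). Srm, spermidine synthase, the next enzyme of that pathway, read 10.38, 10.45 and 10.34, then 10.42, 10.35 and 10.41, then 9.92, 10.12 and 9.93. Srm thus overlapped between the feeders (0.01, adjusted p = 0.968) and gave -0.40 for Compound E against each of them (adjusted p = 2.8e-05 and 0.000142). Nme1, a nucleoside diphosphate kinase, read 11.57, 11.60 and 11.49, then 11.64, 11.67 and 11.76, then 11.49, 11.57 and 11.39. Its rise of 0.14 on OP9-DL1 (adjusted p = 0.0474) was lost under 12 of 19 alternatives, and it fell by 0.21 in the second comparison (adjusted p = 0.00366). Cad, which begins pyrimidine synthesis, read 8.48, 8.46 and 8.31, then 8.56, 8.65 and 8.48, then 8.32, 8.41 and 7.85, with the third Compound E array well below the rest. Its -0.37 against OP9-DL1 (adjusted p = 0.0146) did not pass without that array or without OP9-DL1 replicate 2.

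Several probe sets were present for 28 members, and these were fitted together with every named probe set of the array. Of the 21 genes called lower with Compound E than on OP9-DL1 that have more than 1 probe set, 17 had another called the same way and 0 had another called the other way. Between the feeders Tsr1 and Nme1 lost their calls in this larger fit (adjusted p = 0.0566 and 0.0565), and of the genes still called 3 of 11 had another called the same way, and for Compound E against OP9-GFP 9 of 13 did, again with 0 called the other way.

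Myc itself, which is not among the 40, had the same order of groups as most of the members. It read 8.31, 8.25 and 8.15 on OP9-GFP, 9.20, 9.22 and 9.42 on OP9-DL1, and 7.50, 7.55 and 7.21 with Compound E (log2). The differences were 1.05 (limma adjusted p = 1.87e-07), -1.86 (adjusted p = 9.99e-11) and -0.81 (adjusted p = 1.49e-05). Mycn, its paralog, read 9.26, 9.35 and 9.13, then 8.85, 8.85 and 8.92, then 7.87, 7.94 and 7.86, with no overlap. It fell by 0.37 on OP9-DL1 (limma adjusted p = 0.000594), and Compound E differed by -0.99 from OP9-DL1 (adjusted p = 7.36e-09) and by -1.36 from OP9-GFP (adjusted p = 3.1e-09). In the wider Myc network of 13 genes, 4 rose and 5 fell on OP9-DL1, and 5 rose and 5 fell with Compound E against OP9-DL1. Of the proteins that compete with Myc for Max, Mxd1 rose by 0.63 on OP9-DL1 and gave 0.06 between Compound E and OP9-DL1, which did not pass (limma adjusted p = 0.434), and Mxi1 gave 0.50 and -0.37, both passing. Mlx, a Max-like protein, gave -0.57 and 0.76, both passing.

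**Figure D3:**
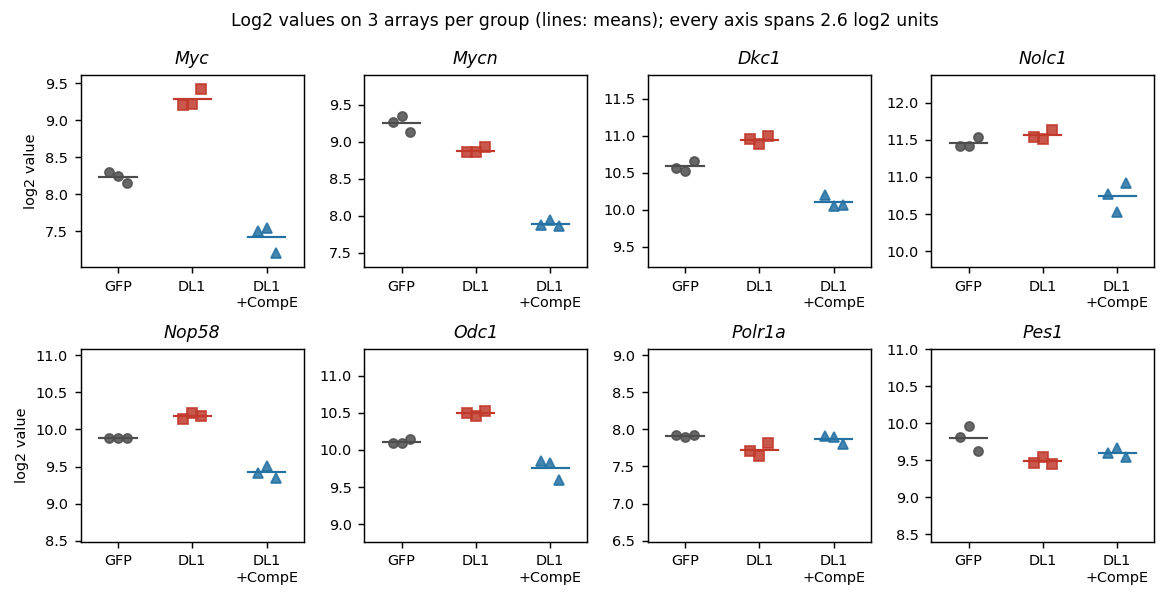
Log2 values of 8 genes on the 3 arrays of each group, with lines for the means. Myc has means of 8.23 on the control feeder, 9.28 on OP9-DL1 and 7.42 under the inhibitor, and Dkc1, Nop58 and Odc1 follow that order on smaller differences, while Mycn has its highest mean of 9.25 on OP9-GFP, and Polr1a and Pes1 are lowest on OP9-DL1.

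Members were also counted by the E-box of their promoters. Of the 7 with CACGTG in the window 6 were lower with Compound E than on OP9-DL1, with a median of -0.40 (log2). Of the 27 without it in the window 19 were lower, with a median of -0.37. Bases outside the window were not searched, so these 27 may hold the motif elsewhere. Of the 6 with no window here, Fbl, Npm1, Rrp12, Bop1, Rrs1 and Srm, 5 were lower, with a median of -0.36. The member with the motif that was not lower was Pes1. The motif stood in 33.3% of 45 other Myc targets, in 20% of 100 other ribosome biogenesis genes and in 10.5% of 38 cytosolic ribosomal protein genes.

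Other genes of the same processes were counted in the same fit, in lists drawn up from known function. Across 118 other ribosome biogenesis genes the calls went both ways. With Compound E 43 were lower than on OP9-DL1 (36.4%, against 21.6% of all genes and 31.9% of the bright set above). In that comparison 18 were higher (15.3%, against 25.1% and 34.7%), with a median of -0.10 (log2). On OP9-DL1 18 rose (15.3%, near the 15.9% of all genes) and 14 fell (11.9%, against 16.7%), with a median of 0.02. Of 54 other small subunit factors 20 were lower and 8 higher in the second comparison, with Lyar at -0.66 and Naf1, an assembly factor of box H/ACA snoRNPs, at -0.46. The opposite order was seen in Utp23, with differences of -0.70 on OP9-DL1 and 0.74 with Compound E, in Krr1 with -0.36 and 0.31, in Utp3 with -0.62 and 0.40 and in Utp14a with -0.43 and 0.74, all passing. Of 50 other large subunit factors 18 were lower and 9 higher, with Mdn1, a very large motor protein, at -0.85, Rsl1d1 at -0.49 and Pa2g4 at -0.40, and with Ccdc86 higher by 0.52. Rsl24d1 and Nol8 rose on OP9-DL1 by 0.30 and 0.33 and gave -0.30 and -0.32 with Compound E, all passing. Of 14 other genes of the RNA polymerase I machinery 5 were lower and 1 higher, among them the initiation factors Rrn3 (-0.36), Ubtf (-0.26) and Taf1d (-0.44) and the snoRNP assembly factor Znhit6 (-0.42). Tcof1, a nucleolar cofactor of this polymerase, fell by 0.21 on OP9-DL1 and differed by 0.01 between Compound E and OP9-DL1 (limma adjusted p = 0.844).

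In a list of 51 other known Myc targets 70.6% were lower in the second comparison. With Compound E 36 were lower than on OP9-DL1 and 2 higher (median -0.19, log2), and on OP9-DL1 15 rose and 2 fell (median 0.04). Ccnd2, cyclin D2, differed by 0.36, -1.22 and -0.86 in the 3 comparisons, Pus7, a pseudouridine synthase, by 0.54, -1.04 and -0.50, and Cct3, a chaperonin subunit, by 0.23, -0.51 and -0.28, all passing. Hk2, hexokinase, moved the other way, with -0.43 on OP9-DL1 and 0.30 with Compound E. Cytosolic ribosomal proteins are built into the subunits that these factors assemble. Of 43 measured, 4 rose on OP9-DL1 (9.3%, against 15.9% of all genes). With Compound E 14 were lower than on OP9-DL1 (32.6%, against 21.6% of all genes and near the 31.9% of the bright set, median -0.07). Against OP9-GFP 2 were lower (4.65%, against 10.6% of all genes and 17.3% of the bright set). Rpl12, Rpl14 and Rps6 gave -0.66, -0.45 and -0.44 in the second comparison.

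The cell cycle was followed by separate lists for DNA replication and mitosis. Of 38 DNA replication genes 17 were lower and 2 higher with Compound E than on OP9-DL1 (median -0.18, log2). The share lower was 44.7%, against 21.6% of all genes and 31.9% of the bright set above. On OP9-DL1 7 rose (18.4%, near the 15.9% of all genes) and 4 fell (10.5%, against 16.7%). Rfc2, a clamp loader subunit, differed by 0.52 and -0.61, Rpa3 by 0.29 and -0.40, and Pola1, of the priming polymerase, by 0.13 (not passing) and -0.55. Mitotic genes moved the other way, more clearly between the feeders. On OP9-DL1 21 of 23 fell (91.3%, against 16.7% of all genes and 27.6% of the bright set, median -0.34). With Compound E 10 were higher than on OP9-DL1 (43.5%, against 25.1% of all genes and 34.7% of the bright set). In that comparison 1 was lower and 12 were not called (median 0.16). Kif23 gave -0.61 on OP9-DL1 and 0.69 with Compound E, Aurka -0.60 and 0.75, and Cenpe -0.61 and 0.55, all passing.

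**Figure D4:**
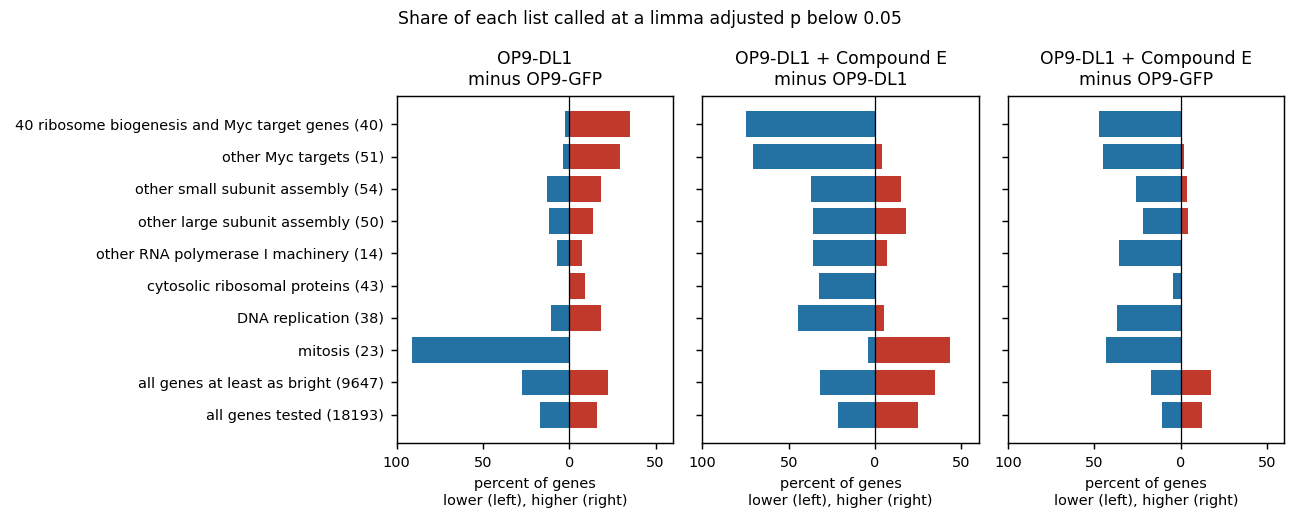
Share of each gene list called lower (left, blue) and higher (right, red) at a limma adjusted p below 0.05 in the 3 comparisons, with the number of genes in brackets and all genes at the bottom. The 40 genes have 75% called lower with Compound E against OP9-DL1 where all genes have 21.6%, other Myc targets follow with 70.6%, and the mitosis list leans the other way.

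The harvest was a mixture, and the arrays cannot tell fewer cells of a type from less RNA per cell. Kit, which defines LSK cells, had log2 means of 8.94, 10.22 and 8.14 in the order OP9-GFP, OP9-DL1, Compound E, and Ptprc, the leukocyte marker CD45, 11.53, 11.38 and 11.59. Ly6a, which encodes Sca-1, was not matched to a probe set here. Of 14 progenitor and leukocyte markers 10 were higher and 3 lower on OP9-DL1 than on OP9-GFP. With Compound E 10 of them were lower and 3 higher than on OP9-DL1. Their summed linear signals were 18961 to 19850, 23657 to 25301 and 15866 to 17023 in the same order of groups. Whether the signal of genes listed as stromal markers came from the feeder was not tested, and Thy1 stands also in the early T cell list. Of these 23 stromal genes 19 rose and 0 fell on OP9-DL1. With Compound E 19 of them were lower and 1 higher than on OP9-DL1, with Lum and Dcn at background in all groups. Their summed linear signal ran from 22571 to 23060 on OP9-GFP, 36013 to 36512 on OP9-DL1 and 22234 to 23009 with Compound E. Megakaryocyte and platelet markers moved with the members. Of 18, 17 were higher and 0 lower on OP9-DL1, and 17 were lower and 1 higher with Compound E than on OP9-DL1. Their sums were 17996 to 18155, 40969 to 41703 and 13597 to 14656 in the 3 groups. Most macrophage and dendritic markers moved against the members. Of 20, 16 were lower and 1 higher on OP9-DL1, and 14 were higher and 2 lower with Compound E than on OP9-DL1. Their sums were 38221 to 39562, 18450 to 18712 and 42465 to 44572, with C1qa and Marco at background throughout. Of 12 erythroid markers 6 rose and 0 fell on OP9-DL1, and 6 were lower and 0 higher with Compound E than on OP9-DL1. Their sums were 6940 to 7235, 12346 to 12649 and 5439 to 5722, with Hba-a1 and Alas2 at background throughout. Of 13 mast cell markers 8 rose and 2 fell on OP9-DL1, and 9 were lower and 1 higher with Compound E than on OP9-DL1. Their sums were 5715 to 5812, 8863 to 8871 and 3924 to 4086, with Tpsab1 at background throughout. Among 14 early T cell markers 8 rose and 2 fell on OP9-DL1, and 8 were lower and 2 higher with Compound E than on OP9-DL1. Their sums were 725 to 749, 1088 to 1164 and 539.8 to 619.9, with Cd3e, Ptcra, Rag1 and Rag2 at background in all groups. Granulocyte markers (14) split into 6 higher and 6 lower on OP9-DL1 and 5 higher and 6 lower with Compound E (sums 42397 to 42856, 49713 to 51075 and 45732 to 46186). Of 11 B cell markers 2 rose and 3 fell on OP9-DL1, and 4 were higher and 3 lower with Compound E (sums 1193 to 1248, 1496 to 1643 and 1086 to 1167), with Cd79a, Pax5, Blnk and Ms4a1 at background throughout. Between Compound E and OP9-GFP, 11 of the 14 progenitor markers were lower and 1 higher, and 13 of the 18 megakaryocyte markers were lower and 1 higher. Of the 12 erythroid markers 5 were lower and 0 higher, of the 13 mast cell markers 6 and 1, and of the 23 stromal markers 6 and 5. Macrophage and dendritic markers had 4 of 20 lower and 10 higher, and granulocyte markers 4 of 14 lower and 8 higher. Early T cell markers had 3 of 14 lower and 0 higher, and B cell markers 4 of 11 lower and 3 higher. The part of these shifts in cell types in the members' values was not tested.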

How the data were processed

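The values deposited by the authors are log2 signals of biotin-labelled RNA, amplified from 25 ng per the labels' protocols. MAS5 and GCRMA 2.4.1 are both named in the submitters' processing notes without a role, so which of them made these signals is unknown here. If dim values were shrunk, small differences of dim genes are understated. Of 45101 probe sets, 34945 have 1 gene symbol in the platform annotation, with names updated through a RefSeq table (GRCm38.p6). Each gene was represented by the probe set with the highest mean over 9 arrays.

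All 9 arrays were fitted by lmFit and trended eBayes of limma 3.58.1 in R 4.3.3, without covariates or further normalization. Benjamini-Hochberg adjustment ran over 18193 genes, and the threshold was 0.05. Differences are log2, and depth has no counterpart on arrays: 3 arrays per group limit the precision (median SE 0.06 for the members). The procedure was tested on simulated data.

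The members, role groups and other lists were chosen with earlier results of these data known, so lists carry counts and medians and no test. Array values are given, per role group, for the 2 genes with the smallest p and the 1 with the largest p in Compound E against OP9-DL1 and the 2 with the smallest p between the feeders. Other lists name up to 3 genes (markers and neighbouring processes up to 2) by the smallest p in these comparisons, plus Myc. Markers named for being at background, Kit, Ptprc, Hes1, the array values of Nolc1 and Rrs1, and second probe sets were chosen after their values were seen. Alternatives were array centring, quantile normalization, log2(value + 32), filters on dim genes and on equal values, averaged probe sets, an untrended variance, fits of just the 6 arrays of a comparison, a replicate block, and each array left out in turn. Linear signals were summed for marker lists.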

Additional observations from a re-analysis of the deposited data

How the results depend on the processing

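No member's call changed sign under any alternative run. The count of members lower with Compound E than on OP9-DL1 stayed between 28 and 32, and that against OP9-GFP between 17 and 24. The filter on equal values kept only 34 members, of which 28 and 17 were lower in these comparisons. The brighter genes alone held 39 members. Between the feeders, 14 members higher became 8 with arrays centred on their medians and 7 with no intensity trend, and 8 to 15 with single arrays left out. The 1 member lower there became 2 with centring, 2 in the brighter genes alone and 0 with probe sets averaged. The median of 0.11 became 0.069 with centring and 0.083 to 0.125 without single arrays. Against OP9-DL1, the 0 members higher with Compound E became 2 with centring, 1 with probe sets averaged and 0 to 1 without single arrays, and the median of -0.37 became -0.31 with centring, -0.31 with probe sets averaged and -0.40 to -0.34 without single arrays. Against OP9-GFP the 0 higher became 1 with probe sets averaged, and the median ran from -0.26 to -0.21 without single arrays. Centring moved the median of all genes to -0.06 between the feeders and 0.13 for Compound E against OP9-DL1. Deviations of same-numbered arrays from their group means correlated weakly over all genes (r from -0.11 to 0.12). The positive values were those of Compound E with OP9-GFP in replicates 2 and 3 (0.10 and 0.12). Such weak values cannot show whether the numbers pair the arrays, and the labels do not say. With the replicate block 12 members were higher and 1 lower between the feeders, 31 were lower with Compound E than on OP9-DL1 and 21 than on OP9-GFP. Averaging probe sets changed calls on Noc3l, Pes1 and Noc2l, among others.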
